A study of Mus musculus with 384 samples.

Results

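FS cells are mouse formative pluripotent stem cells. In line 5ar1 and again in line 5ar2, the 30 cells with the most Eomes mRNA were set against the 30 with the least, so that members were chosen by their Eomes level. Cells with at least 3000000 counts were ranked within their line by Eomes CPM (counts per 1000000 counts of the cell), ties in column order, so that 60 Eomes-high and 60 Eomes-low cells, 120 of 384 sequenced cells and of 180 FS cells kept, entered the comparison. The other 30 kept cells of each line are called Eomes-middle. Eomes chose the cells, so its own difference is a description and no test was made of it.

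Single cells were sorted into plates and sequenced with Smart-seq2, which copies full-length mRNA and carries no molecular identifiers. Both FS lines were labelled formative and were grown in AloXR medium, which the labels call A3XR: low activin, the tankyrase inhibitor XAV939, which blocks Wnt signalling, and the retinoic acid receptor inverse agonist BMS493. A pair of primed lines, EpiSCs, served as an outside comparison: AFX6 in activin, Fgf2 and XAV939, and AF32 in activin and Fgf2 without XAV939. High and low cells of a line shared their line of origin, medium and preparation, and nothing in the labels separates more than one culture of a line. The line was therefore the replicate, 2 in all, and cells were not.

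Eomes encodes a T-box transcription factor that Nodal and activin signalling switches on in the epiblast as the primitive streak forms. It acts with Smad2 and Smad3 and is required for definitive endoderm and for early mesoderm, and it has a separate role in trophoblast. Formative cells stand before that step, between naive pluripotency and the primed state from which the streak arises.

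The Eomes gene (ENSMUSG00000032446) lies on the plus strand of GRCm38 at chr9:118478212-118486132. The gene Gm33460, annotated as antisense, overlaps its last part, and since Smart-seq2 keeps no strand, reads in the overlap cannot be told apart. Eomes chose the cells, and the actin genes Acta1 and Acta2 had far lower means in the high cells. Few low cells held much of that actin signal. The 250 bases before the RefSeq start sites of Eomes, Acta1 and Acta2 on GRCm38.p6 are shown. They are written 5′ to 3′ on the strand of the gene, with a CArG box in capitals. The CArG box is the element bound by serum response factor, a regulator of actin genes. Only its exact form, CCWWWWWWGG with W for A or T, was marked. The Acta2 sequence holds ccctatatgg and ccttgtttgg, which differ from that form by a base each.
Eomes, chr9:118477939-118478188, plus strand: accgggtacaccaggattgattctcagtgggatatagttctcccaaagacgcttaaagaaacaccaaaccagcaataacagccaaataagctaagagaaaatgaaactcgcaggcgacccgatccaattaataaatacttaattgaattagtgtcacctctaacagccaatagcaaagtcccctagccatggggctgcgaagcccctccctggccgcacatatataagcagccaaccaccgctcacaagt
Acta1, chr8:123894776-123895025, minus strand: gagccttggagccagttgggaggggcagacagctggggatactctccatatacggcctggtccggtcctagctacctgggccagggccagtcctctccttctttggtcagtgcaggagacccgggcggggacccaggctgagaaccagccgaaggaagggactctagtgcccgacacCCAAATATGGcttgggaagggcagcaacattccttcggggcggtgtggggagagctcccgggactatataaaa
Acta2, chr19:34255374-34255623, minus strand: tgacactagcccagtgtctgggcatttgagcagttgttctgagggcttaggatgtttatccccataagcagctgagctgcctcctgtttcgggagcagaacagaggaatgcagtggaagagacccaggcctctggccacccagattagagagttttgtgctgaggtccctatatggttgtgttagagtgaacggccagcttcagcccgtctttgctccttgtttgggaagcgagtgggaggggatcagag

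In 5ar1, Eomes ran from 61.7 to 424 CPM in the high cells (median 117), from 30.5 to 61.5 in the middle cells and from 0 to 30.5 in the low cells (median 2.5). In 5ar2 it ran from 58.7 to 262 CPM in the high cells (median 98.4), from 8.13 to 54.7 in the middle cells and from 0 to 7.07 in the low cells (median 0.214). The low cells of 5ar1 thus held more Eomes than those of 5ar2, with a mean of 9.62 against 1.3 CPM, whereas the high cells were alike at 128 and 112 CPM. At the upper border of 5ar1, ranks 30 and 31 had 61.7 and 61.5 CPM, and at the lower border ranks 60 and 61 had 30.48 and 30.47. The borders of 5ar2 fell between 58.7 and 54.7 CPM and between 8.13 and 7.07 CPM. No gap separated the groups in either line.

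At least 1 count of Eomes was present in 85 of 90 cells of 5ar1 (94.4%, exact Clopper-Pearson 95% interval 87.5 to 98.2%) and in 81 of 90 of 5ar2 (90.0%, 81.9 to 95.3%). After thinning each cell to 3000000 counts, the shares were 93.3% and 83.3%. Among EpiSCs, 45.5% of AFX6 cells and 38.8% of AF32 cells had a count before thinning, and 42.4% and 33.8% after it. The intervals cover only the sampling of cells within a line, not the spread between cultures or lines.

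**Figure D1:**
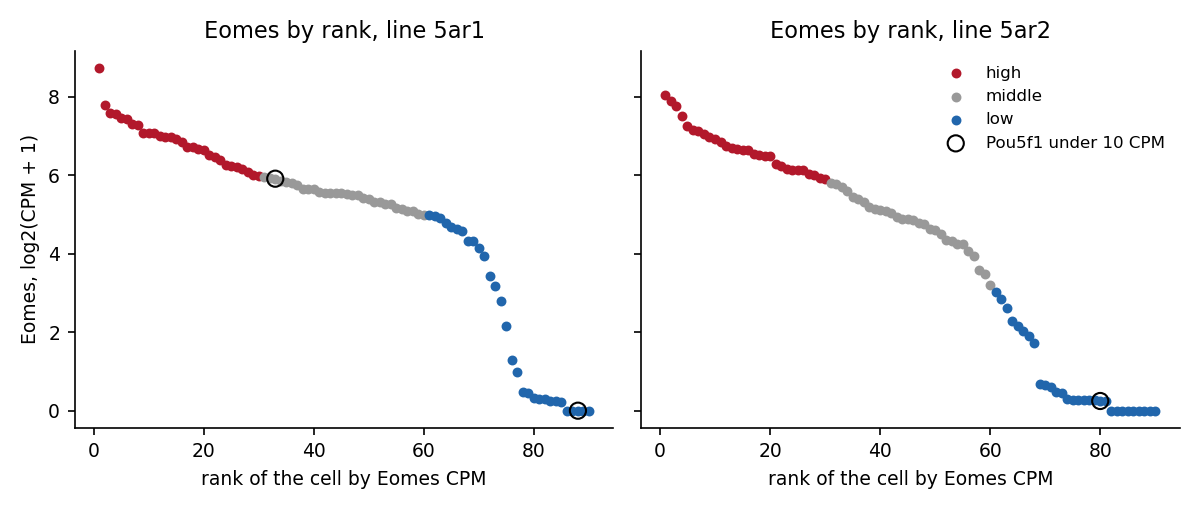
Eomes level, as log2(CPM + 1), against the rank of the cell in each FS line (90 cells each); colours mark the high, middle and low cells and rings mark cells with under 10 CPM of Pou5f1. The level declined without a gap through the border ranks and fell to 0 in the last 5 cells of 5ar1 and the last 9 of 5ar2.

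The FS label was checked against Pou5f1, the central pluripotency factor, and 6 further markers. Pou5f1 was at 53.2 CPM or more in 177 of 180 FS cells (median 563), and Dnmt3b, Utf1, Otx2 and Fgf5 were at 10 CPM or more in at least 26 of 30 cells of every group, and Pou3f1 in 16 to 23. Sox2 was low, with medians of 6.3 to 12.0 CPM over the groups. The remaining 3 cells stood apart, with 2.05 to 3.68 CPM of Pou5f1 and at most 4.02 CPM of Utf1. Cell 26 of 5ar1 was Eomes-middle, with 59.1 CPM of Eomes at rank 33, near the lowest Eomes-high cell of that line at 61.7 CPM. The others were Eomes-low: cell 41 of 5ar1, with 6495 CPM of the intermediate filament gene Vim and 1051 CPM of Anxa1, and cell 49 of 5ar2, with 35858 CPM of Acta2 and 1867 CPM of the collagen gene Col1a1. No Eomes-high cell was of this kind, so results are given with and without these cells; leaving them out was chosen after their values were seen.

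High and low cells had similar depth, with median totals of 4793588 and 5018650 counts in 5ar1 and 4748204 and 4758073 in 5ar2. Over all FS cells kept, totals ran from 3230023 to 6398702 counts. The median number of detected genes after thinning was 10787 against 10699 in 5ar1 and 11046 against 10745 in 5ar2, and 0 high and 1 low cells had few detected genes for their line. Low cells more often had numbers up to 48 in the labels, 20 against 12 in 5ar1 and 19 against 13 in 5ar2. In 5ar2, raised expression of chromosome 16 genes marked 8 high and 12 low cells, and of chromosome 19 genes 16 and 18. In 5ar1, raised expression of chromosome 11 genes marked 3 high, 6 middle and 2 low cells. Whether such cells differ in chromosome number was not tested. The part of the cell numbers in the differences between high and low cells was not tested. Values without the cells of few genes or the 5ar2 cells of raised chromosomes are given with the folds.

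Which genes differ between Eomes-high and Eomes-low cells was tested on counts summed over the 30 cells, 2 sums in each line, with edgeR and the line as a block. None of 19606 genes passed an adjusted p of 0.05 with the same sign in both lines (0%), and the lowest adjusted p was 0.836. At an unadjusted p under 0.05 by edgeR, 492 genes (2.5%) were higher and 592 (3.02%) lower in Eomes-high cells. DESeq2 called 100 higher and 212 lower on the same sums, and limma on the mean of log2(CPM + 1) called 0. With 4 sums the edgeR fit left 1 residual degree of freedom per gene at a common dispersion of 0.506, and a p that misses the threshold does not show that a gene did not differ. No gene below is therefore called changed, and folds are descriptions of these cells.

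By size alone, 8765 genes that averaged 10 CPM or more over the 120 cells were compared as log2 fold of mean CPM plus 1 CPM, high over low. At least 1.5-fold in both lines, 81 genes were higher (0.924%) and 156 lower (1.8%), while 69 were as far apart in opposite directions (0.787%). By any amount, 29.9% of genes were higher and 25.5% lower in both lines. Across the 8765 genes the folds of the lines had a Pearson r of 0.24 and a Spearman rho of 0.16, and among 2141 genes of at least 100 CPM 0.44 and 0.24; genes are not independent replicates. Without the cells lacking Pou5f1 the r over all genes was 0.16, and 78 genes were higher and 87 lower. Of the 156 lower genes, 78 remained, and of the 81 higher genes 62. With means trimmed of the 3 highest and 3 lowest cells of each group 120 genes were higher and 70 lower, and at a minimum of 4000000 counts 85 and 83, so that lower genes no longer outnumbered higher ones.

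Without the cells of few detected genes, 74 genes were higher and 151 lower. Without the 5ar2 cells of raised chromosome 16 or 19 expression, which left 11 cells at each end of that line, 129 were higher, 135 lower and 217 opposite, and 47 of the 81 higher and 56 of the 156 lower genes remained. By edgeR 0 genes then passed, with 324 higher and 293 lower at an unadjusted p under 0.05. Counts by size without these cells, with trimmed means and at 4000000 counts were chosen after the data were seen.

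**Figure D2:**
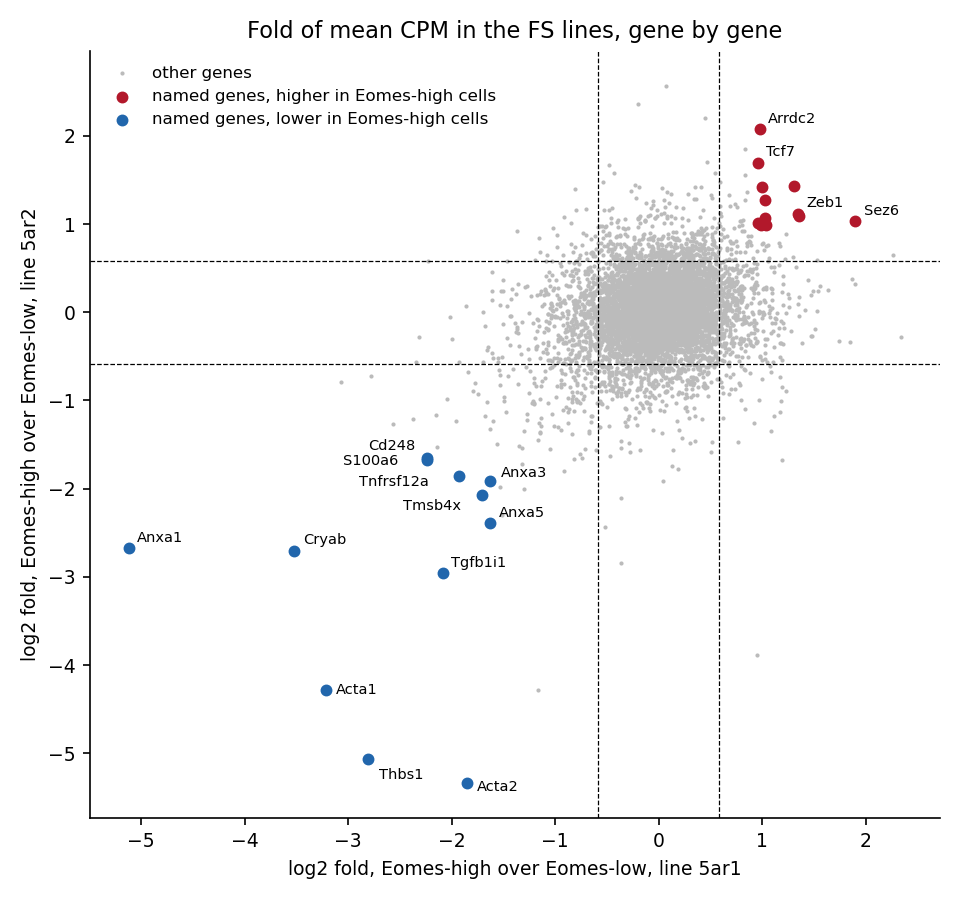
Log2 fold of mean CPM + 1, Eomes-high over Eomes-low cells, for 8765 genes in line 5ar1 (x axis) and line 5ar2 (y axis); dashed lines mark 1.5-fold. Most genes formed a round cloud about 0, and the named lower genes reached folds of −5.12 in 5ar1 and −5.33 in 5ar2, further than any named higher gene.

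The 12 coding genes with the largest shared excess in Eomes-high cells had mean log2 folds of 0.98 to 1.5 over the lines, at mean levels of 10.9 to 25.4 CPM. In order of the smaller of both lines' folds they were Naprt, Zeb1, Ankrd50, Sez6, Miga2, Epha1, Dpy19l3, Adgrb2, Slc35e1, Arrdc2, Tcf7 and Aplp1. Each had an edgeR adjusted p of 0.836, so none passed the test. Leaving out the cells that lack Pou5f1 kept 11 of the 12 at 1.5-fold or more in both lines; Dpy19l3 then had a log2 fold of 0.58 in 5ar1. Leaving out the 5ar2 cells of raised chromosome 16 or 19 expression kept 10, without Epha1 and Aplp1, which had log2 folds of −0.11 and 0.0047 in 5ar2.

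Zeb1 encodes a zinc finger repressor of epithelial genes. In 5ar1 it ran from 0 to 118 CPM in high cells (median 0.523) and from 0 to 40.7 in low cells (median 0.0987), and in 5ar2 from 0 to 63.0 (median 9.11) and from 0 to 62.1 (median 0.210). The ranges overlapped throughout, and both groups held cells without a count. The means were 26.1 against 9.66 CPM in 5ar1 and 19.3 against 8.35 in 5ar2, a mean log2 fold of 1.2 ± 0.16 (SD, n = 2 lines). The middle cells had means of 19.2 and 17.0 CPM, between the ends in both lines.

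Tcf7 encodes a partner of beta-catenin in Wnt target transcription. It ran from 0 to 115 CPM in high cells of 5ar1 (median 22.5) and from 0 to 84.8 in low cells (median 4.00). In 5ar2 it ran from 0 to 56.8 CPM in high cells (median 13.6) and from 0 to 36.6 in low cells (median 0.199). The medians as well as the means were higher in the high cells, and the mean log2 fold was 1.3 ± 0.52 (SD, n = 2 lines).

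Epha1, an ephrin receptor tyrosine kinase gene, had medians of 22.1 CPM in high and 0.339 in low cells of 5ar1, and of 18.8 and 0.211 in 5ar2, with ranges from 0 in all 4 groups. Its log2 folds of mean CPM were 1.02 and 1.3, and their mean went from 1.1 to 0.46 without the 5ar2 cells of raised chromosome 16 or 19 expression. Naprt, for an enzyme of NAD synthesis from nicotinic acid, had folds of 1.3 and 1.4 from means of 26.4 against 10.1 CPM and 18.6 against 6.2 CPM. Arrdc2, an alpha-arrestin gene, differed most between the lines, with folds of 0.98 and 2.07.

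The 12 coding genes with the largest shared deficit in Eomes-high cells had mean log2 folds from −1.77 to −3.93. With trimmed means their median folds were −1.05 and −1.46, against 1.3 and 1.7 for the 12 higher genes. Anxa5 was then at 0.74 in 5ar1. Acta2 was also higher in the high cells of 5ar1, with a trimmed mean fold of −0.33 over the lines. In order the 12 lower genes were Acta1, Thbs1, Cryab, Anxa1, Tgfb1i1, Acta2, Tnfrsf12a, Tmsb4x, S100a6, Cd248, Anxa3 and Anxa5. Acta1 and Acta2 are skeletal and smooth muscle actin, Tgfb1i1 is the focal adhesion protein Hic-5, Tmsb4x binds actin monomers and Thbs1 is the matrix protein thrombospondin. No edgeR adjusted p was under 0.836. Without the cells lacking Pou5f1, 6 of the 12 kept 1.5-fold or more in both lines. Without the 5ar2 cells of raised chromosome 16 or 19 expression 6 did, namely Acta1, Tgfb1i1, Acta2, Tnfrsf12a, Tmsb4x and Anxa5, while in 5ar2 Anxa1 was at 2.5, Cd248 at 1.9, Anxa3 at 0.95 and S100a6 at 0.18.

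Acta2 shows how few cells carried such a difference. It ran from 0 to 51.8 CPM in high cells of 5ar1 and from 0 to 236 in low cells, with medians of 0.250 and 0.191. In 5ar2 it ran from 0 to 203 CPM in high cells and from 0 to 35858 in low cells, with medians of 2.9 and 3.09. The medians were thus close in both lines while the means were 5.33 against 21.9 CPM and 33.5 against 1390. Cell 49 of 5ar2 held 86.0% of the Acta2 signal of its group, and without it and the other cells lacking Pou5f1 the log2 fold in 5ar2 went from −5.33 to −2.50. It was −1.92 without the 5ar2 cells of raised chromosome 16 or 19 expression. With trimmed means Acta2 was higher in the high than in the low cells of 5ar1.

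Acta1 ran from 0 to 5.67 CPM in high and from 0 to 261 in low cells of 5ar1, and from 0 to 107 in high and 0 to 3093 in low cells of 5ar2. Reads that map to more than one actin gene were not counted. Its log2 folds were −3.21 and −4.28, and −3.21 and −3.17 without the cells lacking Pou5f1. Without the 5ar2 cells of raised chromosomes the fold in that line was −1.51. In 5ar1 a single low cell still held 66.9% of its signal.

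Thbs1 exceeded 100 CPM in 1 high and 7 low cells of 5ar1 and in 0 high and 3 low cells of 5ar2. Its highest values were 158 CPM in high and 502 in low cells of 5ar1, and 36.7 and 2317 CPM in 5ar2. The medians, at most 0.246 CPM, were near 0 in all 4 groups. The log2 folds were −2.80 and −5.06, and −2.68 and −3.05 without the cells lacking Pou5f1. Without the 5ar2 cells of raised chromosomes the fold in that line was −0.41.

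No single cell held most of the Tgfb1i1 signal, with 37% and 32% of that of the low cells in the highest cell of each line. In 5ar1 it ran from 0 to 58.8 CPM in high cells (median 0.183) and from 0 to 389 in low cells (median 0.420), and in 5ar2 from 0 to 64.1 (median 0.210) and from 0 to 681 (median 11.5). Its log2 folds were −2.08 and −2.95, and with the cells lacking Pou5f1 left out −2.08 and −2.43. The medians were close to 0 in both groups of 5ar1 and apart in 5ar2, where the fold was −1.19 without the cells of raised chromosomes. The middle cells had means of 12.4 and 31.2 CPM, between 7.44 and 34.8 in 5ar1 and between 8.20 and 70.2 in 5ar2.

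Tnfrsf12a, the receptor of the cytokine Tweak, had means of 19.1 against 75.7 CPM in 5ar1 and 16.7 against 62.9 in 5ar2, a mean log2 fold of −1.89 ± 0.05 (SD, n = 2 lines). Its medians, 8.97 against 18.7 and 5.32 against 26.6 CPM, were also lower in the high cells. Cell 41 held 45.4% of the Tnfrsf12a signal of the low cells of 5ar1. The mean fold was −1.41 without the cells lacking Pou5f1 and −1.33 with trimmed means. Without the 5ar2 cells of raised chromosomes the fold in that line was −0.61. Tmsb4x had folds of −1.71 and −2.07, which became −0.88 and −1.57 without the cells lacking Pou5f1.

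The calcium-binding protein gene S100a6, the small heat shock gene Cryab and the annexin genes Anxa1 and Anxa5 owed much of their folds to the cells that stood apart. Cell 41 held 99.96% of the Anxa1 signal of the low cells of 5ar1, and cell 49 held 83.8% in 5ar2. With the cells lacking Pou5f1 left out, the Anxa1 folds were 0.04 and −0.30, and Anxa5 turned to 0.56 in 5ar1 and stayed at −1.32 in 5ar2. Cryab was then at −0.50 and −0.93, and S100a6 at −0.63 and −0.52.

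A set of 4 genes, Acta1, Acta2, Thbs1 and the smooth muscle calponin gene Cnn1, was chosen after its values were seen, for levels that were high in a few low cells, so that the counts of cells describe that choice. At least 3 of the 4 exceeded 100 CPM in 0 high, 0 middle and 3 low cells of 5ar1, and in 0 high, 3 middle and 5 low cells of 5ar2. At least 2 did so in 0 high, 2 middle and 4 low cells of 5ar1, and in 4 high, 4 middle and 7 low cells of 5ar2. At least 1 of the 4 did so in 7 high and 12 low cells of 5ar1, and in 14 high and 14 low cells of 5ar2.

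**Figure D3:**
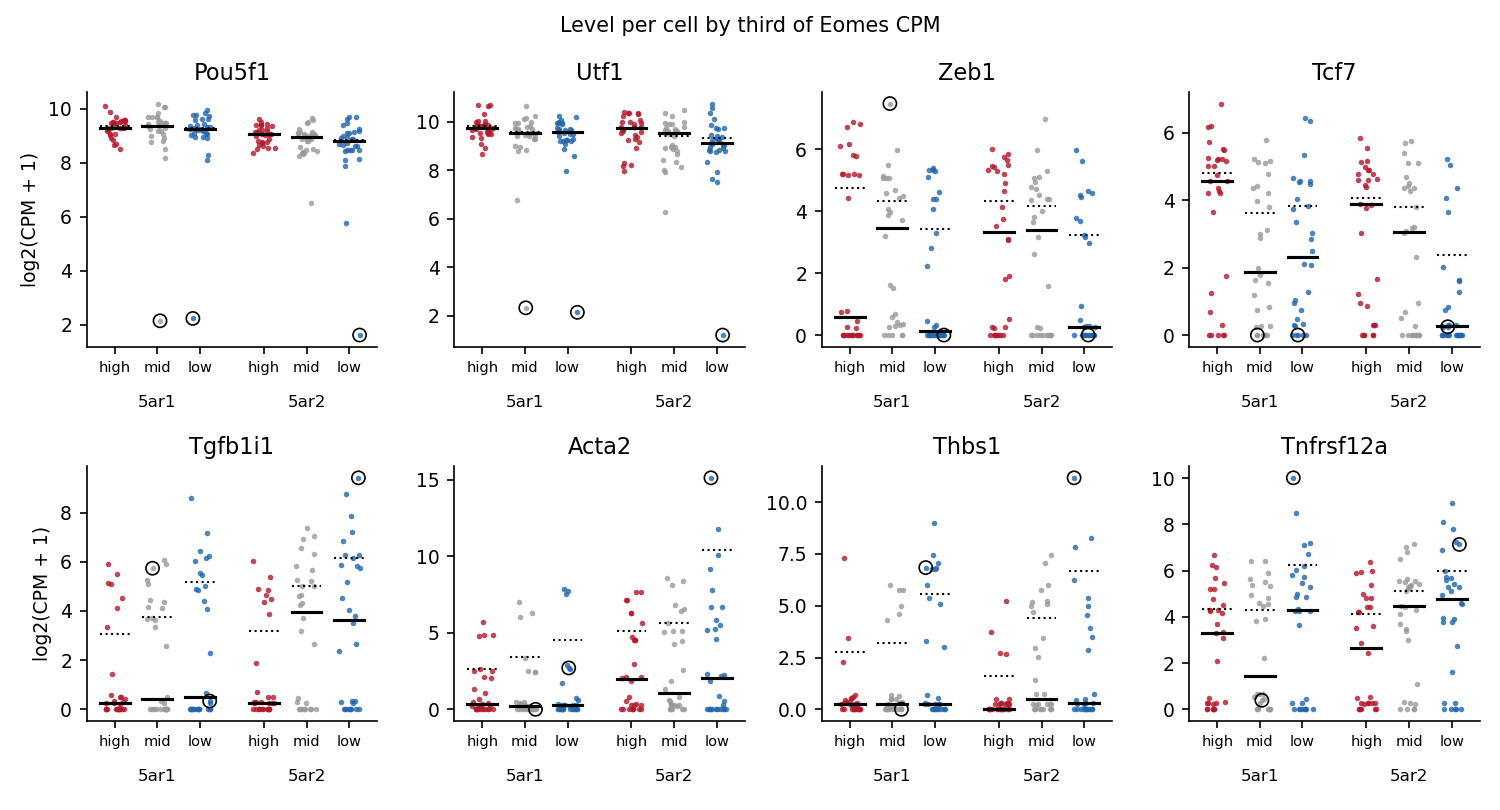
Level of 8 genes in each of the 180 FS cells, as log2(CPM + 1), by line and Eomes group; solid bars are medians, dotted bars the log2 of mean CPM + 1 and rings the cells with under 10 CPM of Pou5f1. Acta2 and Thbs1 had medians near 0 to 3 CPM in every group and a few low cells far above the rest, and Tcf7 had medians of 22.5 and 13.6 CPM in high cells against 4.00 and 0.199 in low cells.

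The RefSeq table held promoters, of 250 bases before and 50 after the start, for 9 of the 12 higher and 7 of the 12 lower genes. A CArG box on either strand, which reads the same on both, was found in 2 of the 7, Acta1 and Anxa5, and in 1 of the 9, Tcf7, against 1.8% of all 27025 genes with a promoter. Among all genes 1.5-fold apart, 7 of 128 lower and 2 of 59 higher genes with a promoter held one. The T-box motif TCACACC, on either strand, was in 0 of the named genes, in 5 of 128 lower and 0 of 59 higher genes, against 4.60% of all. The Eomes promoter held neither. These are matches of letters and were given no test. CArG boxes with a base off the exact form, such as those shown for Acta2, were not counted.

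Genes downstream of Eomes and of Nodal were taken from lists. Of 20 measured primitive streak and mesoderm genes 1, Hand1, reached 10 CPM, with folds of 0.31 and −0.07, and T and Mixl1, the defining streak factors, had group means of at most 0.654 CPM, at or near 0. Their summed level had medians of 77.6 CPM in high and 29.2 in low cells of 5ar1, and 28.7 and 29.7 in 5ar2, with ranges from 0 to 265, 0 to 261, 0 to 321 and 0.204 to 149. The endoderm genes Sox17 and Foxa2 had group means of at most 4.39 CPM. Of 15 definitive endoderm genes 2, Otx2 and Krt19, reached 10 CPM, and Krt19, a keratin gene, was lower with folds of −2.14 and −1.53, and of −0.49 and −1.17 without the cells lacking Pou5f1. Mga was the only one of 12 other T-box genes at 10 CPM, with folds of 0.06 and −0.20.

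Among Nodal pathway ligands and co-receptors, Tdgf1, the co-receptor of Nodal, was higher with folds of 0.84 and 1.6. It ran from 0 to 328 CPM in high (median 0.841) and from 0 to 192 in low cells (median 0.981) of 5ar1, and from 0.198 to 611 (median 21.7) and from 0.421 to 81.3 (median 1.4) in 5ar2. The medians were apart in 5ar2 and close in 5ar1, where the middle cells had a mean of 8.70 CPM, under both ends. Nodal had means of 1.4 against 9.58 CPM in 5ar1 and 5.48 against 5.74 in 5ar2. Lefty1, a secreted Nodal antagonist and target, had means of 0.418 against 10.1 and 5.92 against 17.4 CPM, folds of −2.97 and −1.41, and was under 10 CPM overall. Of 8 receptors and Smads at 10 CPM, 2 were higher in both lines and 0 lower, against 29.9% and 25.5% of all genes. The medians were 0.24 and 0.05.

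Of 13 formative epiblast genes at 10 CPM, 10 were higher in both lines by any amount, against 29.9% of all genes, and 0 were lower, with median folds of 0.37 and 0.38 against 0.01 and 0.02 over all genes. Pou3f1, a POU factor of the early post-implantation epiblast, was the one beyond 1.5-fold, as were 0.924% of all genes in that direction. Its folds were 0.78 and 0.98, and its medians 51.8 against 23.3 CPM in 5ar1 and 26.5 against 10.6 in 5ar2. Its means in the middle cells, 78.1 and 41.2 CPM, were above those of the high cells, 71.7 and 37.0. Fgf5, a ligand that marks the post-implantation epiblast, had folds of 0.48 and 0.40. Otx2 was at 0.52 and 0.07, and at 0.49 and −0.00024 without the cells lacking Pou5f1.

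Of 9 core pluripotency genes, 8 were higher in both lines and 0 lower, against 29.9% and 25.5% of all genes. The medians were 0.10 and 0.38. Pou5f1 differed little, with folds of 0.07 and 0.22, and Utf1, a chromatin factor, had 0.29 and 0.38. Nanog had 0.51 and 0.46. Of 14 FGF and ERK feedback genes 11 were higher in both lines, against the same 29.9%, with medians of 0.38 and 0.37. This list shares Fgf5, Etv4 and Etv5 with the formative list. Without the cells lacking Pou5f1 these medians were 0.35 and 0.32 for FGF, 0.38 and 0.32 for formative and 0.08 and 0.31 for core genes.

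Of 22 genes of G2/M and mitosis 17 were higher in both lines and 1 lower, against 29.9% and 25.5% of all genes. The medians were 0.13 and 0.31. Plk1, a mitotic kinase gene, had folds of 0.34 and 0.56. Of 20 replication genes 9 were higher and 2 lower in both lines, with medians of 0.05 and 0.16. None of these 42 genes reached 1.5-fold in both lines.

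Of 11 immediate early genes at 10 CPM, 7 were lower in both lines against 25.5% of all genes, with medians of −0.97 and −0.38, and −0.58 and −0.16 without the cells lacking Pou5f1. Jun, Junb, Atf3 and Klf6, transcription factor genes induced by serum or stress, were beyond 1.5-fold, as were 1.8% of all genes in that direction. Klf6 had medians of 37.5 against 74.2 CPM in 5ar1 and 48.9 against 55.7 in 5ar2, and folds of −1.68 and −1.18. Of 15 p53 targets 7 were lower in both lines, against the same 25.5% of all genes. Their medians were −0.50 and −0.22, and −0.17 and 0.01 without the cells lacking Pou5f1. Perp and Bbc3 were beyond 1.5-fold with them and at −0.16 and −0.67, and −0.30 and −0.49, without.

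Among the other lists, 2 of 13 measured naive factors reached 10 CPM. Of these 1, Klf5, was lower in both lines, with folds of −1.95 and −1.23. The medians of the 2 genes were −1.09 and −0.58, and −0.76 and −0.46 without the cells lacking Pou5f1. Of 13 cadherin and EMT genes 2 were higher and 7 lower in both lines, against 29.9% and 25.5% of all genes. Their medians were −0.23 and −0.19. Of the remaining lists, BMP and Id genes had 3 of 6 higher and 1 lower in both lines, early neural genes 1 and 3 of 6, and Nodal antagonists and targets 3 and 2 of 6. Wnt genes had 1 of 3 higher, namely Tcf7, and 0 lower, and of 12 germ cell genes 0 reached 10 CPM.

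Markers of other cell types were read over their whole lists. The 9 fibroblast genes summed to 0 to 36.3 CPM in high and 0 to 81.3 in low cells of 5ar1, and to 0 to 55.9 in high and 0 to 2826 in low cells of 5ar2, where cell 49 was the highest. Their medians were 1.5 CPM in high and 17.3 in low cells of 5ar1 and 20.0 and 2.2 in 5ar2, apart in opposite directions. Without the cells lacking Pou5f1, Col1a1 had folds of −1.33 and −0.81. The 12 extraembryonic endoderm genes had medians of 417 against 641 CPM and 636 against 855 CPM, mostly from Sparc and Apoe, which other cells express too, while Gata6 was at most 0.307 CPM in any group. The 11 trophoblast genes had medians of 54.2 against 25.0 and 23.1 against 23.2 CPM.

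**Figure D4:**
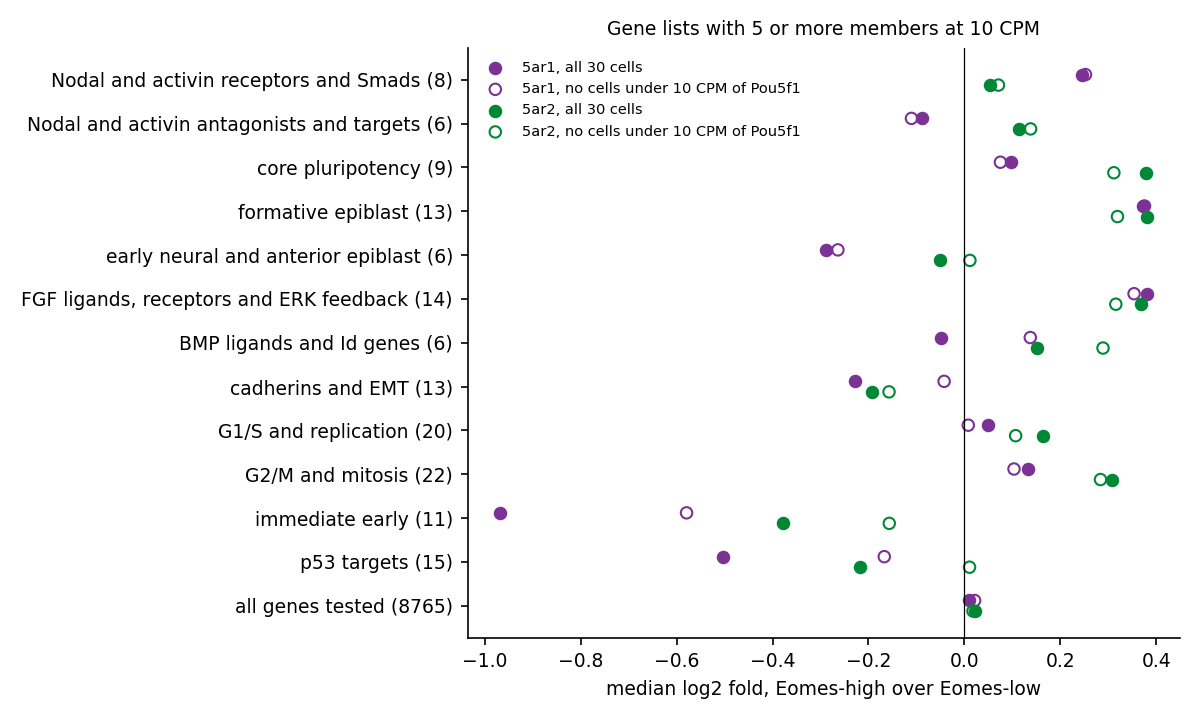
Median log2 fold, Eomes-high over Eomes-low, of each list with 5 or more members at 10 CPM (number in brackets), in 5ar1 and 5ar2; filled points use all cells and open points leave out cells with under 10 CPM of Pou5f1. Formative and FGF lists lay between 0.32 and 0.38 in both lines, and immediate early genes lay lowest at −0.97 and −0.38.

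Genes whose level followed that of Eomes over all 90 cells of a line were ranked by the smaller of the lines' Spearman rho, among 9752 coding genes with a count in at least 30% of cells. The highest were Pdp2, Zfp36l2, Pcbp1, Heatr1, Tet1, Socs6, Rnf168, Pim2, Prpf31 and Mcm10, with the smaller rho from 0.24 to 0.26. Zfp36l2, an mRNA decay factor gene, had 0.26 and 0.41, and Tet1, for an enzyme that oxidises methylcytosine, 0.28 and 0.25. The lowest were Dstn, which encodes the actin-severing protein destrin, Fgfbp1, Bex3, Prnp and Speg, with the smaller size from −0.22 to −0.25. All are weak and share each cell's depth; the rho of Eomes with depth was −0.08 and 0.13, and with detected genes after thinning 0.12 and 0.21.

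Within 500 kb of Eomes, the coding genes Azi2, Cmc1 and Golga4 were at 10 CPM or more, with folds between −0.22 and 0.39. Itga9, an integrin gene that starts 128 kb after the start of Eomes, was at a mean of 2.7 CPM with folds of 1.7 and 1.9 (edgeR unadjusted p 0.0242, adjusted p 0.836). Ctdspl, at 3.55 CPM, had folds of 1.2 and 0.84. Gm33460, which overlaps Eomes, had folds of 0.14 and −0.02 at 1.8 CPM.

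In EpiSCs the same contrast was drawn between the 22 highest and 22 lowest cells of AFX6 and the 26 highest and 26 lowest of AF32, where the low cells had no Eomes count and were ordered by column alone. Mean Eomes was 19.4 and 17.6 CPM in the high cells, with medians of 10.1 in AFX6 and 0.465 in AF32, so that few cells carried the mean of AF32 and the contrast was unlike that in FS cells. Of 9054 genes at 10 CPM, 178 were at least 1.5-fold higher (1.97%) and 218 lower (2.4%) in both EpiSC lines. Of the 81 genes higher in FS cells, 61 reached 10 CPM in EpiSCs, where 1 was 1.5-fold higher and 4 lower. Of the 156 lower genes, 132 did, and 9 were higher and 10 lower.

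Of the 12 named higher genes 0, and of the 12 named lower genes 1, kept their direction in both EpiSC lines, where by any amount 23.8% of the 9054 genes were higher and 25.9% lower in both. Each set had 8 genes at 10 CPM in EpiSCs. Whether the difference between Eomes-high and Eomes-low cells itself differs between FS cells and EpiSCs was tested as an interaction with edgeR on 8 sums. None of 21230 genes passed (0%), with a lowest adjusted p of 0.861; at an unadjusted p under 0.05 there were 525 with a larger and 585 with a smaller log2 difference in FS cells. DESeq2 called 184.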

How the data were processed

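The authors aligned the reads to GRCm38.p6 with STAR 2.7.3a, counted uniquely mapped reads per gene with featureCounts 2.0.0 and deposited the resulting raw counts, a table of 31617 genes by 384 cells. They also deposited sctransform values, a depth-corrected score, used here only to rank cells in an alternative. The strand setting of the counting and the treatment of reads shared by paralogues beyond unique mapping are not given in the sources used here. Gene names came from GENCODE M21, in which 52 IDs had no match.

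Groups were set by Eomes CPM as described. Raw counts were summed over the cells of each line and group and tested with edgeR 4.0.16 (filterByExpr, TMM, quasi-likelihood test, line as replicate block, Benjamini-Hochberg adjustment) in R 4.3.3. Eomes was not tested. The step was tested on simulated data. The outcome is not given here, so that run is no measure of the power of the test on these cells. Folds used mean CPM plus a pseudocount of 1 CPM, for genes of at least 10 CPM; genes are not compared in level with each other. Genes were named by rule: up to 12 each way among called genes, otherwise those at least 1.5-fold apart the same way in both lines by the smaller fold, without Gm, Rik and pseudogenes; list genes; the 10 highest and 5 lowest rho; and neighbours within 500 kb. Others were chosen after their values were seen, among them Cnn1. The 22 gene lists and the members were chosen with earlier results of these data known. Some list genes were not analysed here. Intervals are Clopper-Pearson from scipy 1.17.1. P-values measure only the spread between the sums of 2 lines, which may be technical. Alternatives were DESeq2 1.42.0, limma 3.58.1, other scalings, filters, pseudocounts, group sizes, depth limits and cells left out.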

Additional observations from a re-analysis of the deposited data

How the results depend on the processing

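No gene passed under edgeR in any alternative, with or without the cells lacking Pou5f1, or with TMM or DESeq2 size factors. The same held with no replicate block (0 higher and 0 lower, against 0 and 0 in the paired fit). With limma, run on the main groups only, no gene passed either. DESeq2 alone called genes, 100 higher and 212 lower, among them 5 of the 12 named higher and 11 of the 12 named lower genes, and 184 in the interaction; the cause was not tested. The interaction gave 0 with any line left out. With 1 FS line left out no residual degree of freedom remains, so no test was run.

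The counts by size were less stable. Genes 1.5-fold apart, 81 higher, 156 lower and 69 opposite, became 7, 48 and 5 at 2-fold, 313, 494 and 521 at a minimum of 1 CPM, 161, 248 and 211 with 20 cells at each end, and 34, 76 and 44 with 45. A pseudocount of 5 CPM gave 45 higher and 28 opposite. Alternatives added after the data were seen gave 129 higher, 135 lower and 217 opposite without 5ar2 cells of raised chromosome 16 or 19 expression, 85 higher and 83 lower at a minimum of 4000000 counts, 78 and 87 without cells under 10 CPM of Pou5f1, and 120 and 70 with means trimmed of the 3 highest and 3 lowest cells. One line alone gave 504 to 527 higher and 537 to 625 lower. The trimmed means kept 10 of the 12 named higher and 3 of the 12 named lower genes past the filter and the fold, and the chromosome setting 10 and 6. Of 360 refits of the named genes' mean folds, 238 moved by less than the SD between lines and 122 by more. The mean changed direction in 0. Leaving out a line always moves the mean by less than that SD. It also cannot change the direction, because the genes were named for the same sign in both lines. Reversing ties left the groups unchanged, so the 238 partly reflect how the refits were set. Folds of single lines did reverse: without the 5ar2 cells of raised chromosomes, Anxa1 was at 2.5 and Epha1 at −0.11 in 5ar2.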
